A study of Danio rerio with 6 samples.

Results

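The one-carbon and methionine cycle genes described here are mat1a, mat2aa, gnmt, ahcy, bhmt, shmt1, mthfd1b, mthfd1l and mthfd2. They are 9 of the 31953 gene IDs in the authors' deposited tables, and each matched 1 ID by its symbol. The set was drawn up with results in view and is treated as chosen by the deposited fold changes and p-values of both comparisons, so those are given as a description. RNA was sequenced from livers of adult male zebrafish (Danio rerio), in 3 groups of 2 libraries. The control group was held in water with EtOH, the vehicle of both compounds. The E2 group was held with 1000 nM 17β-estradiol, the main natural estrogen, in EtOH. The NP group was held with 100 nM nonylphenol in EtOH, an alkylphenol left when detergents degrade, known as a weak ligand of estrogen receptors. Each group had 1 tank of 80 L with 40 fish for 3 weeks, so tank and treatment cannot be told apart. Whether a library stands for 1 fish or a pool is not stated, and p-values therefore measure the spread between libraries, which may be technical.

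The methionine cycle makes S-adenosylmethionine, the methyl donor of most methylation reactions, from methionine and ATP. Once its methyl group has been passed on, the product is hydrolysed to homocysteine, which is methylated back to methionine with a methyl group from betaine or from folate. The folate cycle supplies the latter from carbon atoms of serine and glycine, and runs in separate cytosolic and mitochondrial branches. In vertebrates the liver holds most of the enzymes that dispose of excess methionine and betaine.

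For E2 against control, mthfd2 and mthfd1l, both mitochondrial folate genes, rose in the authors' deposited table at an adjusted p under 0.05. The betaine-using gene bhmt fell at the same threshold. The mthfd1l call rests on a single E2 library, as the other held 0 reads of it. The other 6 genes did not pass. All 9 had an adjusted p, so 3 of 9 were called, beside 5.77% of the 3241 genes tested in that table (2.1% rose and 3.67% fell). Those shares are background only, because the genes were chosen with this contrast known. The median log2 fold change in the authors' deposited table was -0.74 over the 9 genes and -0.22 over all tested genes. In the NP libraries 0 of the 8 genes with an adjusted p passed, beside 2.94% of 6799 tested genes (1.26% rose and 1.68% fell). The unadjusted p in the authors' deposited table was under 0.05 for 2 of those 8 genes, and limma-voom called 0, also with 2 at an unadjusted p under 0.05. The median log2 fold change in the authors' deposited table was 0.62 over the 8 genes and -0.03 over all tested genes.

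The deposited tables hold means and fold changes, not values per library. Whole reads per library were recovered from the deposited means, and all 9 genes were solved. The recovered libraries cannot be tied to a sample label, so within each group the library with the larger size factor is called deeper and the other shallower. Normalised reads are recovered reads divided by the size factor of the library in the table concerned, and values of 1 gene are comparable between libraries. Levels of different genes are not compared as amounts of transcript, since no gene lengths were used. Where reads of a pair of genes are set against each other, only the difference between libraries is described. Size factors relative to the shallower E2 library were 14.3 and 9.09 in control, 5.92 in the deeper E2 library, and 8.07 and 7.83 in NP. By reads over all solved genes the NP order was the reverse, with 474792 in the deeper and 511385 in the shallower library. Totals over solved genes leave out abundant genes for which no solution was sought, such as tfa, a hepatocyte marker given below. The shallower E2 library held 29107 reads over all solved genes and the other libraries 330476 to 610015. At that depth 3 reads, taken as the limit that a count of 0 allows, stand for 16.0 normalised reads in the shallower E2 library and 2.71 in the deeper one. These limits cover counting error only.

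**Figure D1:**
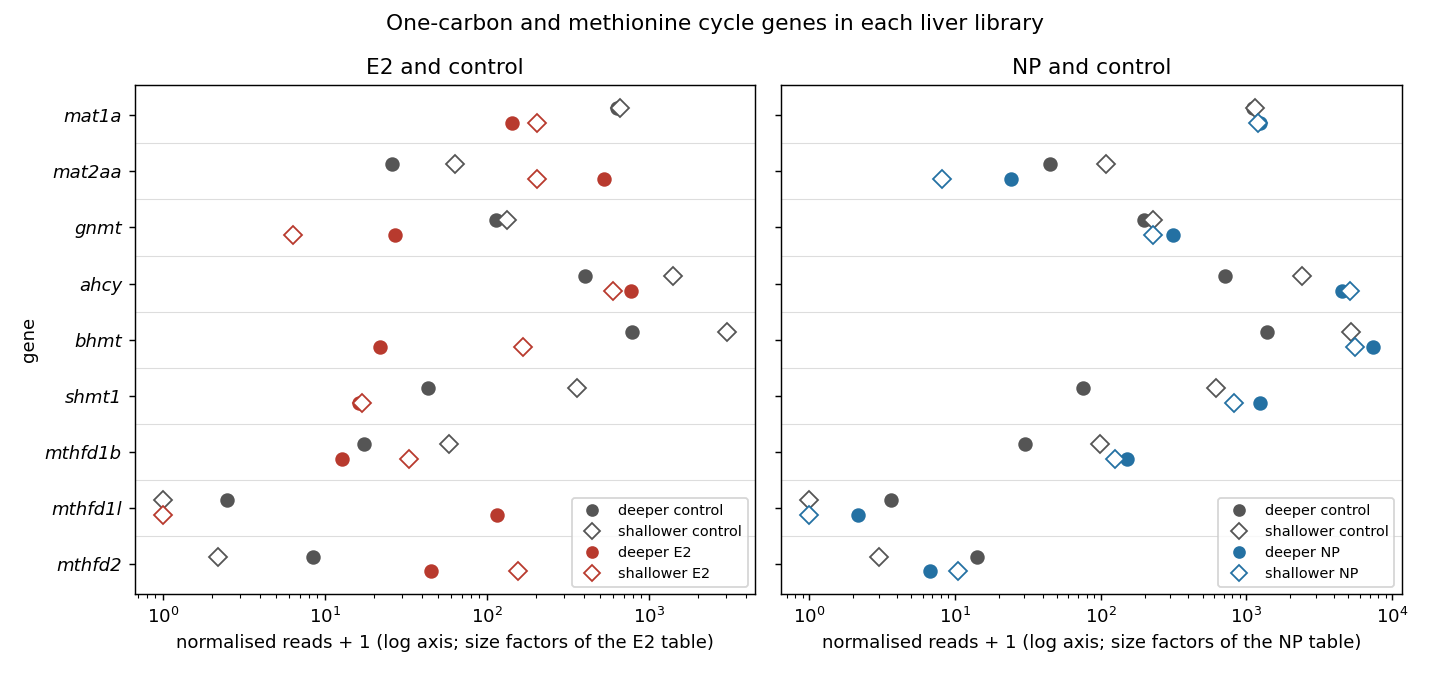
Normalised reads plus 1 of the 9 genes (log axis) in each library, with the E2 table's size factors at left and the NP table's at right; filled circles are the deeper and open diamonds the shallower library of a group. In E2 both libraries lay above both controls for mat2aa and mthfd2 and below both for mat1a, gnmt, bhmt and shmt1. In NP both lay below both controls for mat2aa and above both for mat1a, gnmt, ahcy, bhmt, shmt1 and mthfd1b. The margins in NP were narrow for mat1a, gnmt and bhmt.

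The label "liver" was checked against 20 hepatocyte markers, all of which had an adjusted p in both tables. The mean over 4 libraries of tfa, which encodes transferrin, in the authors' deposited tables was 12684 in that of E2 and 61346 in that of NP. Both means include the controls and each is on its own table's scale, so they do not compare E2 with NP. Among the 20 markers, 4 fell in E2 (median log2 fold change -1.36) and 0 passed in NP (median 0.83, with 3 at an unadjusted p under 0.05) in the authors' deposited tables. Only 6 of the 20 markers were solved. The others had larger means in the E2 table, and no solution was sought for them. The sums therefore leave out the most abundant hepatocyte markers. Summed over those 6, normalised reads on the E2 table's scale came to 286 and 3043 in the deeper and shallower control, 405 and 519 in E2, and 3391 and 5340 in NP. The deeper control held 7 reads of hpx, the hemopexin gene, and the shallower control 3002, so the control libraries stood far apart for this gene. It alone gave 1766 of the 3043 summed in the shallower control. Of the other solved markers, ahsg2, apobb.2, serpina1l and tat were also lower in the deeper control. ttr was higher there, at 123 against 91.8 normalised reads. Summed normalised reads of 16 exocrine pancreas markers came to 41.5 and 203 in control, 214 and 2299 in E2, and 9911 and 36207 in NP libraries, deeper first. Of the pancreas markers, 2 of 12 rose in E2 and 14 of 16 rose in NP in the authors' deposited tables. Macrophage markers (11 genes) summed to 769 and 471 in control, 127 and 69.5 in E2, and 103 and 143 in NP libraries. Intestine markers (10 genes, 8 of them at 0 in both E2 libraries) summed to 3.37 and 392 in control, 1.81 and 5.35 in E2, and 3.31 and 2.73 in NP libraries. The 6 bile duct markers summed to 1047 and 882, 217 and 155, and 632 and 645 in the same order, and the 5 red blood cell markers to 51.2 and 37.7, 15.4 and 53.5, and 168 and 464. The part of these cell types in the results below was not tested. In bulk tissue, fewer cells of a type and less RNA per cell cannot be told apart.

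S-adenosylmethionine is made by methionine adenosyltransferases. In mammals MAT1A is the form of the adult liver, and MAT2A is the form of most other tissues and of growing or fetal liver. mat1a (ENSDARG00000039605) had 1691 reads in the deeper control, 1130 in the shallower one, and 158 and 38 in the E2 libraries. The normalised values were 632 and 665 in control and 143 and 203 in E2. Both E2 libraries lay below both controls, which were nearly equal, and the ratio of the control to the E2 mean was 3.75. The authors' deposited log2 fold change was -1.79 ± 0.98 (SE), with an adjusted p of 0.304 by DESeq2. mat2aa (ENSDARG00000040334) had 67 and 106 reads in control and 585 and 38 in E2. In normalised reads this gave 25.1 and 62.4 in control and 529 and 203 in E2. The E2 libraries both exceeded both controls, with a mean 8.37 times the control mean. The authors' deposited log2 fold change was 2.84 ± 1.07 (SE), with an adjusted p of 0.0913 by DESeq2, so neither gene passed.

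The share of mat2aa among the reads of both genes does not depend on a library's size factor. It takes no account of gene length, so it is compared between libraries and does not measure the share of transcripts. In control it was 3.81% for the deeper library (95% exact Clopper-Pearson interval 2.97% to 4.81%) and 8.58% for the shallower (7.07% to 10.3%). It was 78.7% in the deeper E2 library (75.6% to 81.6%) and 50.0% in the shallower E2 library (38.3% to 61.7%), which rests on 76 reads. In NP it was 1.85% (1.13% to 2.84%) in the deeper and 0.589% (0.217% to 1.28%) in the shallower library. The groups did not overlap: E2 lay above the controls and NP below them. Both genes were chosen with both contrasts known, so this separation is a description and adds no support to either gene's change. With 2 libraries against 2, a two-sided exact permutation test cannot give a p below 0.333, so these shares carry no test.

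**Figure D2:**
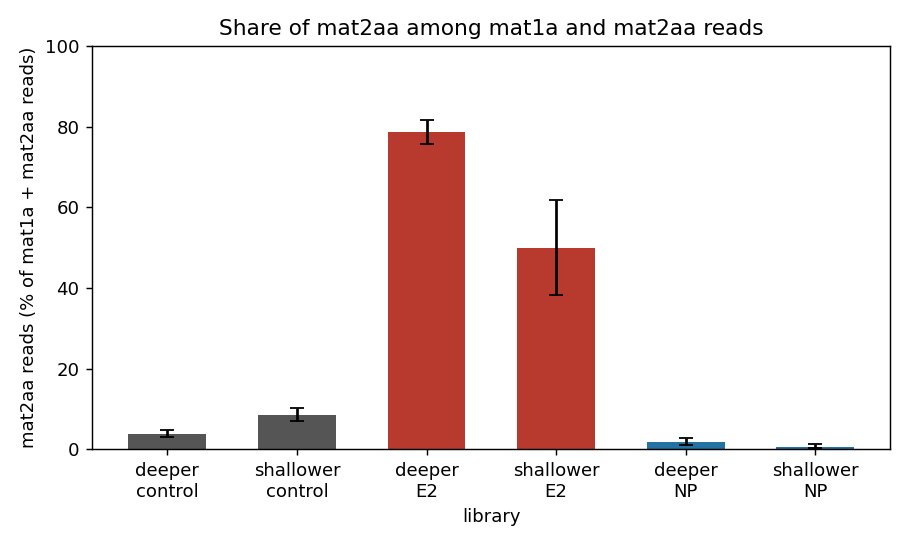
Share of mat2aa among mat1a and mat2aa reads (%, vertical axis) in each of the 6 libraries, with 95% exact binomial intervals that cover counting error only. The controls were at 3.81% and 8.58%, the E2 libraries at 78.7% and 50.0%, and the NP libraries at 1.85% and 0.589%.

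Of the genes that use S-adenosylmethionine and handle its product, gnmt lay below the controls in E2 and ahcy overlapped them. Neither passed, and a difference between them was not tested. gnmt (ENSDARG00000006840) encodes glycine N-methyltransferase, which burns off excess methyl groups by making sarcosine. It had 300 and 225 reads in control and 29 and 1 in E2, or 112 and 132 against 26.2 and 5.35 normalised. Again both E2 libraries lay below both controls, although the single read of the shallower E2 library allows 0.135 to 29.8 normalised reads (95% exact Poisson interval). The control mean was 7.75 times the E2 mean, and the authors' deposited log2 fold change was -2.58 ± 1.14 (SE, DESeq2 adjusted p 0.162). ahcy (ENSDARG00000005191) encodes S-adenosylhomocysteine hydrolase, which clears the inhibitory product of methylation. Its reads were 1083 and 2379 in control and 861 and 112 in E2, or 405 and 1400 against 778 and 599 normalised. The E2 libraries lay between the controls, and the authors' deposited log2 fold change was -0.36 ± 1.06 (SE, DESeq2 adjusted p 0.903).

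bhmt (ENSDARG00000013430) encodes betaine-homocysteine methyltransferase, which returns homocysteine to methionine with a methyl group of betaine. It had 2089 and 5156 reads in control and 23 and 31 in E2. Scaled by depth, they came to 781 and 3034 in control and 20.8 and 166 in E2. Both E2 libraries lay far below both controls, although the controls differed from each other 3.88-fold and the E2 libraries 7.97-fold. bhmt fell in the authors' deposited table (log2 fold change -3.94 ± 1.21 SE, DESeq2 adjusted p 0.0275), and the ratio of the control to the E2 mean was 20.5. ahcy acts just before bhmt in the cycle, and the ratio of their reads does not depend on a library's size factor. The ratio reuses the same bhmt reads, and both genes were chosen with the contrast known, so it adds no support. There were 0.518 and 0.461 ahcy reads per bhmt read in control, 0.610 and 0.923 in NP, and 37.4 and 3.61 in the deeper and shallower E2 library. The deeper E2 ratio rests on 23 bhmt reads. dmgdh, whose enzyme takes up the dimethylglycine that bhmt's enzyme releases, is the next protein-coding gene to bhmt on chromosome 21 of the RefSeq assembly GRCz12tu. It had 58 and 247 reads in control and 7 and 10 in E2, but its normalised libraries overlapped (21.7 and 145 against 6.33 and 53.5). Its authors' deposited log2 fold change was -1.38 ± 1.30 (SE, DESeq2 adjusted p 0.633).

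The cytosolic folate genes among the 9 lay lower in E2 without passing, or overlapped the controls. shmt1 (ENSDARG00000052816) encodes the cytosolic serine hydroxymethyltransferase, which moves a carbon from serine to tetrahydrofolate. It had 114 and 613 reads in control and 17 and 3 in E2. After normalisation they stood at 42.6 and 361 in control and 15.4 and 16.0 in E2. Both E2 values lay below both controls, while the controls differed 8.46-fold. The 3 reads of the shallower E2 library allow 3.31 to 46.9 normalised reads (95% exact Poisson interval). That range takes in the 42.6 of the deeper control. As a log2 ratio with a pseudocount of 1, shmt1 was at -3.60 with all libraries and -1.39 without the shallower control. The ratio of the control to the E2 mean was 12.8, and the authors' deposited log2 fold change was -3.30 ± 1.23 (SE, DESeq2 adjusted p 0.0851). mthfd1b (ENSDARG00000040492) is a zebrafish counterpart of the cytosolic enzyme that interconverts formyl, methenyl and methylene folate in mammals. Its reads were 44 and 97 in control and 13 and 6 in E2, or 16.5 and 57.1 against 11.7 and 32.1 normalised. These overlapped, and the authors' deposited log2 fold change was -0.74 ± 1.19 (SE, DESeq2 adjusted p 0.806).

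Both mitochondrial folate genes stood above both controls in the deeper E2 library, and mthfd2 also in the shallower one. mthfd2 (ENSDARG00000098646) encodes the mitochondrial methylene folate dehydrogenase and cyclohydrolase, known in mammals as an enzyme of embryonic and dividing cells. It had 20 and 2 reads in control and 49 and 29 in E2. The normalised values were 7.48 and 1.18 in control and 44.3 and 155 in E2. Both E2 libraries lay above both controls, and the E2 mean was 23.0 times the control mean. mthfd2 rose in the authors' deposited table (log2 fold change 4.01 ± 1.22 SE, DESeq2 adjusted p 0.0261). The shallower E2 library, where mthfd2 was higher, also had the larger sum of normalised pancreas marker reads, at 2299 against 214. In the NP libraries these sums were 9911 and 36207, and mthfd2 was at 3.31 and 5.46 on the same scale. Whether pancreas cells had a part in the mthfd2 values was not tested.

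mthfd1l (ENSDARG00000042221) encodes the mitochondrial ligase that releases formate for export to the cytosol in mammals. It had 127 reads in the deeper E2 library, 4 in the deeper control and 0 in the shallower control and the shallower E2 library. Its normalised value was 115 in the deeper E2 library and 1.50 in the deeper control. The groups overlapped, and the count of 0 in the shallower E2 library allows up to 16.0 normalised reads. mthfd1l rose in the authors' deposited table (log2 fold change 4.99 ± 1.58 SE, DESeq2 adjusted p 0.0345), a call that rests on the deeper E2 library. Without that library no mthfd1l reads remain in E2, and the value depends on the method: -0.81 as a log2 ratio with a pseudocount of 1, and 1.74 by limma-voom (adjusted p 0.658).

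Of the 9 genes, each averaging 5 or more normalised reads over the 4 libraries, 2 lay above both controls in both E2 libraries, 4 below and 3 overlapped. Over all 5597 solved genes of that abundance, 11.1% lay above both controls and 32.5% below. The 2 E2 calls of genes that did not overlap, bhmt and mthfd2, and that of mthfd1l depend on which genes share the adjustment. With Benjamini-Hochberg adjustment over all genes that have a p in the authors' deposited table, 0 of the 3 passed, although 6 of the 9 had an unadjusted p under 0.05. Run on the recovered reads, limma-voom called 0 of the 9 and 3 of 5597 genes, and 5 of the 9 had an unadjusted p under 0.05. It called 1, bhmt, once the deeper control was left out, and 0 when any of the other 3 libraries was left out. With no filter on low values it called 2, bhmt (adjusted p 0.00868) and mthfd2 (adjusted p 0.0265).

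**Figure D3:**
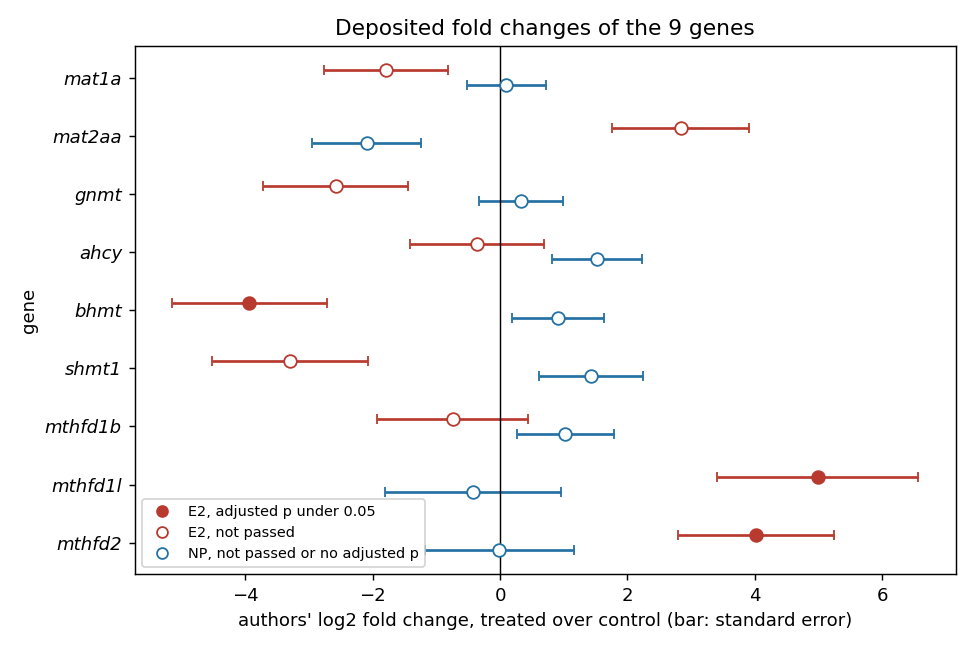
Log2 fold changes of the 9 genes from the authors' deposited tables (horizontal axis, treated over control) with their standard errors, E2 in red and NP in blue; filled points passed an adjusted p of 0.05. In E2 mthfd2 (4.01), mthfd1l (4.99) and bhmt (-3.94) passed, and in NP no gene with an adjusted p passed.

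Under NP, the values below are on the scale of the NP table. The E2 and NP comparisons share the 2 control libraries and differ in concentration, so their values are set side by side and not compared. mat2aa was the member with the smallest adjusted p. Its reads were 20 and 6 in NP against the 67 and 106 of the controls. In normalised reads this gave 23.1 and 7.14 in NP and 44.2 and 107 in the controls. Both NP libraries lay below both controls, with a control mean 5.01 times the NP mean. The authors' deposited log2 fold change was -2.09 ± 0.86 (SE), with an unadjusted p of 0.0145 and an adjusted p of 0.269 by DESeq2. mat1a had 1063 and 1012 reads in NP, or 1227 and 1203 normalised against 1115 and 1145 in the controls. All 4 libraries lay within a narrow range, and the authors' deposited log2 fold change was 0.10 ± 0.62 (SE, DESeq2 adjusted p 0.999).

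ahcy had 3919 and 4311 reads in NP. Scaled by depth, they came to 4525 and 5127 against 714 and 2410 in the controls. Both NP libraries lay above both controls, with a mean 3.09 times the control mean and a log2 fold change of 1.52 ± 0.71 (SE) in the authors' deposited table, where its adjusted p by DESeq2 was 0.439. shmt1 had 1076 and 693 reads in NP, or 1242 and 824 normalised against 75.2 and 621. It lay above both controls, at 2.97 times their mean, with a log2 fold change of 1.43 ± 0.82 (SE, DESeq2 adjusted p 0.685) in the authors' deposited table. bhmt had 6422 and 4672 reads in NP, or 7414 and 5556 normalised against 1377 and 5223. The shallower NP library stood close to the shallower control, and the authors' deposited log2 fold change was 0.91 ± 0.73 (SE, DESeq2 adjusted p 0.958).

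mthfd1b had 130 and 104 reads in NP, or 150 and 124 normalised against 29.0 and 98.3. It lay above both controls, with a log2 fold change of 1.03 ± 0.76 (SE, DESeq2 adjusted p 0.914) in the authors' deposited table. gnmt had 271 and 192 reads in NP, or 313 and 228 normalised against 198 and 228. Its lower NP value stood above the higher control by less than 1 normalised read, and the authors' deposited log2 fold change was 0.33 ± 0.65 (SE, DESeq2 adjusted p 0.999). mthfd2 had 5 and 8 reads in NP, or 5.77 and 9.51 normalised against 13.2 and 2.03. Those overlapped, and the authors' deposited log2 fold change was -0.01 ± 1.17 (SE, DESeq2 adjusted p 0.999). mthfd1l had 1 and 0 reads in NP against 4 and 0 in control, no adjusted p, and a log2 fold change of -0.43 ± 1.38 (SE) in the authors' deposited table.

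Of the 8 genes that averaged 5 or more normalised reads in the NP table, 6 lay above both controls in both NP libraries, 1 lay below and 1 overlapped. The margin over the higher control was narrow for gnmt, for mat1a (1203 against 1145) and for bhmt (5556 against 5223). Over all 7585 solved genes of that abundance, 22.4% lay above both controls and 22.7% below. These shares too are background only, because the genes were chosen with this contrast known. On the E2 table's scale, the controls differed 8.46-fold for shmt1, 3.88-fold for bhmt and 3.46-fold for ahcy, and for each the deeper control was the lower. The deeper control was also the one with 7 hpx reads, while mat1a and gnmt were nearly equal between the controls (1.05-fold and 1.18-fold). Whether these differences go together was not tested. Without the shallower control, limma-voom called 3 of the 8 genes, bhmt (log2 fold change 2.22), shmt1 (3.75) and ahcy (2.75), and 354 of 7585 genes in all. The lone control is then assumed to vary like the NP libraries. When any of the other 3 libraries was left out, 0 of the 8 were called. Between the NP libraries the difference ran from 1.02-fold for mat1a to 3.24-fold for mat2aa.

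The spread between libraries of a group also differed among the genes. Between the controls it was 1.05-fold for mat1a and 1.18-fold for gnmt, 2.49-fold for mat2aa, 3.47-fold for mthfd1b and 6.36-fold for mthfd2. The genes for the liver form of the synthetase and for glycine N-methyltransferase were thus the steadiest of the 8 with reads in both controls. Between the E2 libraries the order was another, with shmt1 at 1.04-fold, ahcy at 1.30-fold, mat1a at 1.42-fold, mat2aa at 2.60-fold, mthfd1b at 2.73-fold, mthfd2 at 3.50-fold, gnmt at 4.90-fold and bhmt at 7.97-fold. The gnmt value there rests on 1 read and that of shmt1 on 3 reads in the shallower library.

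A further 76 gene IDs of 10 pathway lists surround these 9 genes, and 5 listed symbols had no match and were not used here. Of the 76, 26 had an adjusted p in E2, of which 1 rose, 2 fell and 23 did not pass (median log2 fold change -0.20 in the authors' deposited table). The share with adjusted p under 0.05 over all tested genes was 5.77%, as above. In NP 46 had an adjusted p and 0 passed, beside 2.94% of all tested genes, with 3 at an unadjusted p under 0.05 in the authors' deposited table and 5 by limma-voom, which also called 0. The median there was 0.05. Among the 42 solved IDs that averaged 5 or more normalised reads in the E2 table, 10 lay above both controls, 14 below and 18 overlapped, beside 11.1% above and 32.5% below over all such genes. In NP these were 10, 9 and 34 of 53, beside 22.4% above and 22.7% below.

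Of the cytosolic folate list, aldh1l1 fell in E2. aldh1l1, for the enzyme that oxidises formyl folate to carbon dioxide, had 267 and 781 reads in control, 6 and 2 in E2, and 951 and 659 in NP. Its normalised values of 99.9 and 460 in the controls stood above the 5.42 and 10.7 of E2, and the authors' deposited log2 fold change was -4.69 ± 1.21 (SE, DESeq2 adjusted p 0.00613). The adjusted p of aldh1l1 was 0.375 by limma-voom, and 0.0326 with adjustment over all genes with a p in the authors' deposited table. A second ID with this symbol was listed at 0. mthfd1a, the paralog of mthfd1b, had at most 2 reads in any library.

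Of the mitochondrial folate list, slc25a32a fell in E2. It is a homolog of the mammalian carrier of folate into mitochondria. It had 11 and 370 reads in control, 3 and 0 in E2, and 75 and 122 in NP, so its control value rests on 1 library. The authors' deposited log2 fold change was -4.78 ± 1.55 (SE, DESeq2 adjusted p 0.0409), and without the shallower control the limma-voom value was -0.50. The call was lost with adjustment over all genes with a p in the authors' deposited table (0.205) and by limma-voom on all libraries (adjusted p 0.683). Reads of other enzymes of this branch were few. shmt2, the mitochondrial serine hydroxymethyltransferase, had 0 and 2 reads in control, 0 and 1 in E2, and 12 and 8 in NP, where its authors' deposited p was 0.0384 with no adjusted p. mthfd2l, the paralog of mthfd2, had 1 read in all 6 libraries together.

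Around S-adenosylmethionine itself no other gene passed. In the methionine cycle list, mat2al, a further synthetase gene, had 1 and 5 reads in control and 10 and 8 in E2 (authors' deposited log2 fold change 3.40 ± 1.37 SE, DESeq2 adjusted p 0.119). The paralog mat2ab had 2 reads in all libraries together. adka, for an adenosine kinase that removes the adenosine released by ahcy's enzyme, had 95 and 148 reads in control, 624 and 26 in E2, and 170 and 153 in NP. Both E2 libraries lay above both controls (564 and 139 against 35.5 and 87.1 normalised), with a log2 fold change of 2.32 ± 1.12 (SE, DESeq2 adjusted p 0.217) in the authors' deposited table. In NP its authors' deposited log2 fold change was 0.78 ± 0.71 (SE, DESeq2 adjusted p 0.999). gamt, whose enzyme makes creatine, a large use of methyl groups, had 130 and 1465 reads in control, 37 and 6 in E2, and 1221 and 1869 in NP. The E2 values lay below both controls (33.4 and 32.1 against 48.6 and 862 normalised), but most of the control mean came from the shallower control. The 6 reads of the shallower E2 library allow 11.8 to 69.8 normalised reads (95% exact Poisson interval), which takes in the deeper control. For gamt the authors' deposited log2 fold change was -3.37 ± 1.27 (SE, DESeq2 adjusted p 0.0889). comta, a catechol methyltransferase gene, had the smallest p of its list in NP, at 1.23 ± 0.86 (SE, DESeq2 adjusted p 0.864) in the authors' deposited table.

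The lists further from the cycle held 1 call. trib3, a pseudokinase gene known in mammals as a target of the amino acid and stress response factor ATF4, rose in E2. It had 21 and 5 reads in control, 61 and 27 in E2, and 6 and 9 in NP, or 7.85 and 2.94 against 55.1 and 144 normalised in E2. The groups did not overlap, and the authors' deposited log2 fold change was 3.81 ± 1.13 (SE, DESeq2 adjusted p 0.0227). The call was lost with adjustment over all genes with a p in the authors' deposited table (0.118), and by limma-voom with the filter on low values (adjusted p 0.375) and without it (adjusted p 0.101). The other 5 tested genes of this ATF4 list did not pass. In serine synthesis, psat1 had 21 and 1 reads in control and 114 and 0 in E2, so that its E2 reads, like those of mthfd1l, came from the deeper E2 library (authors' deposited log2 fold change 3.01 ± 1.52 SE, DESeq2 adjusted p 0.250). In the same list dldh was at 0.89 ± 0.70 (SE, DESeq2 adjusted p 0.943) in NP in the authors' deposited table.

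Oxidation of cysteine and sarcosine showed no call. cdo1, for cysteine dioxygenase, had 21 and 53 reads in control, 0 in both E2 libraries, and 73 and 53 in NP. Its E2 comparison had an unadjusted p of 0.00552 and no adjusted p in the authors' deposited table, and the limit of 16.0 normalised reads in the shallower E2 library exceeds the 7.85 of the deeper control. Its authors' deposited log2 fold change in NP was 1.03 ± 0.82 (SE, DESeq2 adjusted p 0.954). sardh, for sarcosine dehydrogenase, had 5 and 10 reads in control, 0 in both E2 libraries and 33 and 19 in NP. The limit of 16.0 also exceeds both sardh controls, at 1.87 and 5.88 normalised reads. In NP the authors' deposited log2 fold change of sardh was 1.92 ± 0.96 (SE, DESeq2 adjusted p 0.532). pipox, another sarcosine oxidase gene, had 2 and 10 reads in control and 8 and 6 in E2, with an authors' deposited p of 0.116.

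For polyamines, amd1, which takes S-adenosylmethionine into that pathway, stood at 96.2 normalised reads in the shallower E2 library against 24.4 in the deeper one and 16.5 and 17.7 in the controls. Its authors' deposited log2 fold change in E2 was 1.62 ± 1.13 (SE, DESeq2 adjusted p 0.473). odc1, for ornithine decarboxylase, had 136 reads in the deeper control, 2 in the shallower, 22 and 3 in E2, and 0 and 6 in NP. The controls thus differed more than the treated groups, and its authors' deposited log2 fold change in NP was -2.89 ± 1.17 (SE, DESeq2 adjusted p 0.257). gart, for an enzyme that uses formyl folate to build purines, had 0 and 7 reads in control, 0 in both E2 libraries, and 16 and 4 in NP. A count of 0 in the shallower E2 library allows up to 16.0 normalised reads, above the 0 and 4.12 of the controls. In NP the authors' deposited log2 fold change of gart was 1.30 ± 1.26 (SE, DESeq2 adjusted p 0.999).

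**Figure D4:**
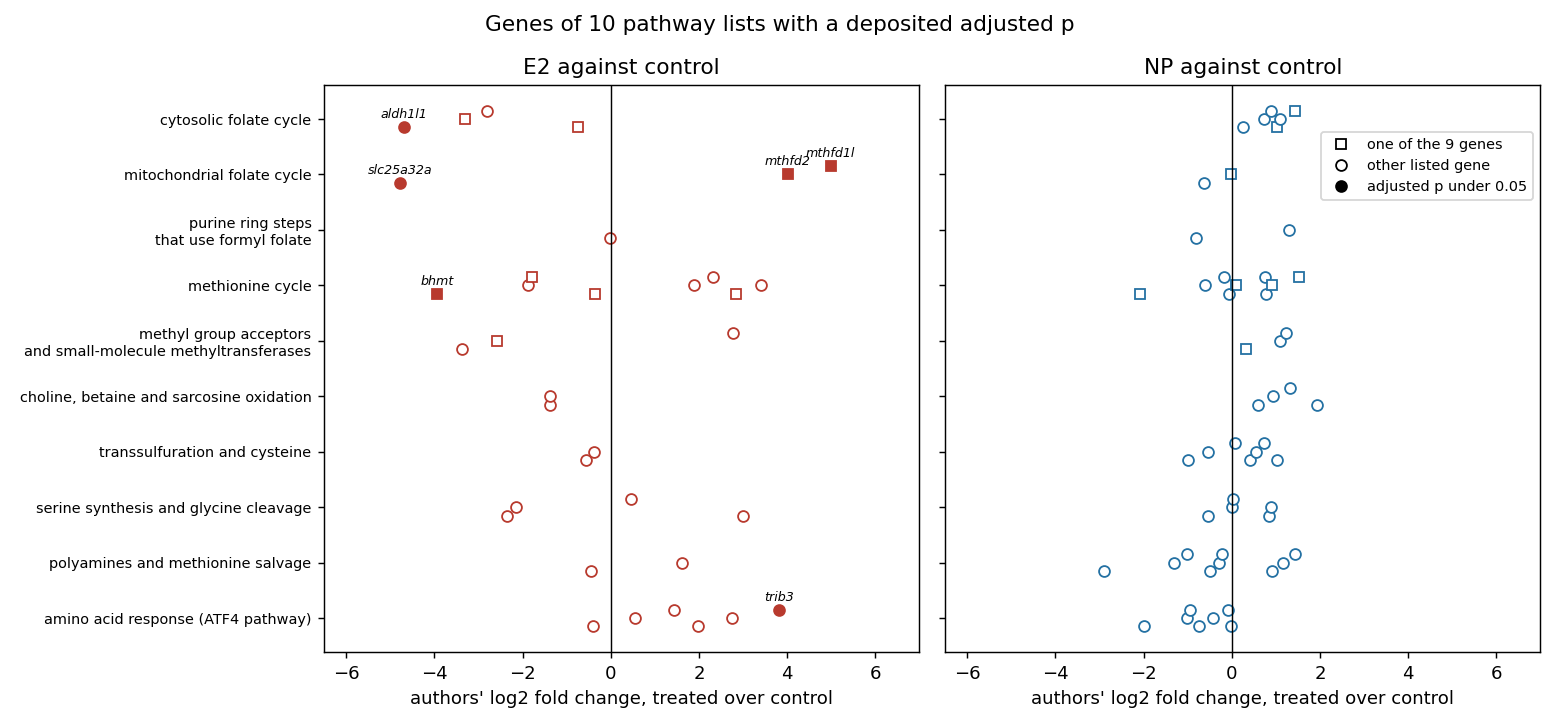
Log2 fold changes from the authors' deposited tables (horizontal axis, treated over control) of the reported genes with an adjusted p in 10 pathway lists, E2 at left and NP at right; squares are the 9 genes, circles the other listed genes, and filled symbols passed an adjusted p of 0.05. In E2 the filled symbols are mthfd1l (4.99), mthfd2 (4.01) and trib3 (3.81) to the right and bhmt (-3.94), aldh1l1 (-4.69) and slc25a32a (-4.78) to the left, and in NP none is filled.

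Likeness of pattern was described for the members with the smallest adjusted p in each table, as Pearson's r of log2(normalised reads + 1) over the 6 libraries on 1 common scale. It was computed against 2206 solved genes averaging 20 or more normalised reads. The libraries share 3 treatments and differ in depth, so r describes these libraries only and carries no p. mthfd2 was most like ddost (r = 0.994), which encodes a subunit of the oligosaccharyltransferase of the endoplasmic reticulum, then trib3 (0.993) and adkb (0.991), an adenosine kinase gene. ddost stood at 132 and 81.8 in control, 231 and 310 in E2, and 108 and 132 in NP. mat2aa was most like rpn1 (0.982), for another subunit of the same transferase, then abhd3 (0.975) and TMC5 (0.975). rpn1 stood at 183 and 185 in control, 459 and 289 in E2, and 113 and 89.4 in NP.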

How the data were processed

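Liver RNA of 3 groups of 2 libraries was sequenced. Per the labels' protocols, liver RNA from TRIzol extraction and column clean-up was DNase-treated before TruSeq library preparation. Alignment and counting tools listed in the submitters' processing notes are TopHat2 and HTSeq, beside DESeq2 and the GRCz10 build, and versions and settings are not given in the sources used here. A pair of comparisons, E2 and NP against control, of 32760 rows each was available. Per the file headers, the authors deposited for each gene a signal (the mean normalised count over 4 libraries), a log2 fold change with its standard error, a score (their ratio), a p-value and an adjusted p-value. Repeated rows of an ID were counted once. Current names were looked up for the 31953 gene IDs, and 26121 had one. The design had expected counts per library; for tables without them the deposited values were the main result, called at an adjusted p under 0.05.

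Each deposited mean adds up whole reads that count for a constant amount in a given library, and these amounts were read from the smallest means. Means carry 10 significant digits, and both tables share the control reads, so each gene was solved for 6 whole counts. The most abundant genes outside the members and pathway lists were not tried. Where several solutions remained, those whose negative binomial fit gave both deposited fold changes and standard errors were kept, a step chosen after seeing the data. Of 18593 genes with reads, 18488 (99.4%) were solved, 18447 from the means alone and 41 with the fold changes, among them bhmt and ahcy. That fit gave the deposited log2 fold change within 0.0001 for 2796 of 2802 genes checked in E2 and 7194 of 7195 in NP. In each gene its spread between libraries was set to give the deposited standard error. Its remaining setting, the variance of a prior that shrinks log2 fold changes, was tuned on some of the solved genes. The fit had also picked the solutions of the 41. Among the genes checked, agreement is therefore not independent for those used in either step. Ratios of group means are not shrunken, so they can exceed the deposited fold changes. On simulated data 1996 of 2000 genes had 1 solution and all 1996 were right, as were 8 of 8 high genes. Fold changes of those high genes were simulated by the same fit with its settings known. The assignment of the control amounts used solved 400 of 400 low genes, and the next best solved 140.

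Recovered reads were tested with limma 3.58.1 (voom, R 4.3.3) as an alternative. On simulated data it called 95.5% of 200 genes changed 8-fold among 5597 in E2, with 5 false calls, and 95.5% among 7585 in NP, with 3. The simulation gave every gene a set negative binomial dispersion (spread between libraries) of 0.15, not one estimated from these libraries. These shares therefore check the method and do not give its power on the recovered reads. Genes averaging under 5 normalised reads were left out. The common scale of the 6 libraries links the tables through the control size factors.

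The members and lists were chosen with earlier results of these data known, and the lists' counts support nothing beyond themselves. Named are the 9 members, their paralogs, every other listed gene with an adjusted p under 0.05 in either table and, in lists without one, the gene with the smallest p in each table, plus the 3 genes most like each of 2 members. dmgdh was named after its values were seen, as the neighbour of bhmt. A listed gene is not reported here, and the list counts leave it out. Sequences were not used here.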

Additional observations from a re-analysis of the deposited data

How the results depend on the processing

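For E2, 3 of the 9 genes passed as deposited. The count was 0 with Benjamini-Hochberg adjustment over all genes with a deposited p, 5 at an adjusted p under 0.10, 0 by limma-voom on recovered reads, 2 by limma-voom with no filter on low values, 0 with upper quartile scaling, and 0 to 1 when 1 library was left out. Of the other listed genes 3 passed, and these counts were 1, 4, 0, 2, 0 and 0 to 2. For NP, the counts of 0 members and 0 other genes stayed at 0 in each of these settings and became 3 and 5 in limma-voom without the shallower control, with 0 to 3 and 0 to 5 over the libraries left out. The cause was not tested.

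The log2 fold changes of mthfd1l, mthfd1b and ahcy in E2 and of mthfd1l and mthfd2 in NP changed sign in some settings. In E2, mthfd1l without the deeper E2 library, which leaves 0 reads, was at -0.81 as a log2 ratio and 1.74 by limma-voom, and it reached 7.24 over the libraries left out. mthfd1b was at 0.31 and 0.13 by limma-voom without the shallower control and without the deeper E2 library, in a range of -1.57 to 0.39. ahcy was at 0.043 with upper quartile scaling, and at 0.81 and 0.046 by limma-voom without the shallower control and without the shallower E2 library, in a range of -1.02 to 0.81. In NP, mthfd2 was at 0.052 by limma-voom, 0.31 with no filter, and 1.66 and 0.36 without the deeper control and without the deeper NP library, in a range of -0.76 to 1.66, and mthfd1l was at 0.66 as a log2 ratio without the deeper control. bhmt, mthfd2, aldh1l1, trib3 and slc25a32a kept their E2 direction in each setting run. No paired analysis was possible because the recovered libraries cannot be tied to samples, and the labels themselves number no replicates. Depth limits the shallower E2 library most, by its size factor and by its 29107 reads over all solved genes. Having 2 libraries a group limits every test.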
